A study of Homo sapiens with 6 samples.

Results

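The 10 genes described here belong to the Notch pathway. They comprise the receptors NOTCH1, NOTCH2 and NOTCH3, the ligands JAG1, JAG2, DLL1 and DLL3, and the HES and HEY family genes HES1, HES6 and HEY1. They were taken by symbol from the 17687 genes measured, and all 10 were present with 1 probe set each. The measurements come from SH-SY5Y, an established human neuroblastoma line of sympathetic lineage, on 1-colour Affymetrix whole-transcript arrays. Of 6 arrays, 3 were labelled 15EN and 3 vehicle control (VC), with 1 of each at passages 33, 34 and 35 for replicates 1, 2 and 3 by the titles, although each description names passage 33. All cells were differentiated with atRA (all-trans retinoic acid) over 96 h. The treatment text, the same for both groups, gives the bioactive compound at 15 µM. Eurycomanone, from roots of Eurycoma longifolia, is the compound named in the series title, and the labels do not expand 15EN. No separate culture is named for the samples beyond the passage. The p-values therefore only compare a group difference with the spread of these arrays within groups. That spread may be technical or follow passage. No arrays without atRA were analysed here, so every difference is between cells given atRA. How far either group had differentiated was not tested.

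Notch is a cell-contact signalling system in which a ligand on one cell binds a receptor on its neighbour. Binding exposes the receptor to cleavage outside the membrane by an ADAM protease and then within the membrane by γ-secretase. The freed intracellular domain joins the DNA-binding protein RBPJ and Mastermind coactivators in the nucleus and raises transcription of HES and HEY genes. These encode repressors that hold back proneural factors, and the pathway is known for keeping neural crest and sympathoadrenal progenitors from neuronal differentiation.

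HES1 is the textbook target of this complex, and NOTCH2 and NOTCH3 were the only 2 of the 10 genes that passed the test described below. The 250 bases before the annotated start of these 3 genes are therefore shown (RefSeq, GRCh38.p14, read 5′ to 3′ on the gene's strand). Capitals mark the RBPJ core motif TGGGAA and the N box CACNAG, a motif bound by HES repressors, searched on both strands.
HES1 promoter, chr3:194135898-194136147, plus strand: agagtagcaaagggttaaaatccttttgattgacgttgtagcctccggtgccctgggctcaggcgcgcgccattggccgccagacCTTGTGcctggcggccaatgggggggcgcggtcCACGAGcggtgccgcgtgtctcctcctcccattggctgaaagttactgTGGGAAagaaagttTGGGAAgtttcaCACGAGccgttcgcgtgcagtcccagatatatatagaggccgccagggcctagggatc
NOTCH2 promoter, chr1:120069663-120069912, minus strand: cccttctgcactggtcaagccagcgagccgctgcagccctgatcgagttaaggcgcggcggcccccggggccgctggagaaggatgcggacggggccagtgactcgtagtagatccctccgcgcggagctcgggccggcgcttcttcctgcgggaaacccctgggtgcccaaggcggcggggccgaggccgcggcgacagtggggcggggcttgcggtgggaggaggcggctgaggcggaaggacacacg
NOTCH3 promoter, chr19:15200996-15201245, minus strand: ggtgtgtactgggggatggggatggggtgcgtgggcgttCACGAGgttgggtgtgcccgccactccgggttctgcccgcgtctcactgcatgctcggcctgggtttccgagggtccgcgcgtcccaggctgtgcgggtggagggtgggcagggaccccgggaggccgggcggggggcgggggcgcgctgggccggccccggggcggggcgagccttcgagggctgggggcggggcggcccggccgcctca
The HES1 window holds 2 copies of TGGGAA on the gene's strand, at 84 to 79 and at 70 to 65 bases before the start. The first of them lies within a match to the longer form GTGGGAA. The same window has 3 N boxes, 1 of them on the opposite strand, and 2 matches to the class C site CACGCG, not capitalised, on the opposite strand. In the NOTCH3 window 1 N box and no TGGGAA were found, and the NOTCH2 window had neither motif.
Windows were available for 7 of the 10 genes. Among these 7, TGGGAA occurred in the HES1 window only, and the E box CACGTG in 0. Over the windows of 27305 genes, 21.1% held TGGGAA, 5.46% GTGGGAA, 32.0% the N box, 9.62% CACGCG and 6.49% CACGTG. These matches are descriptions of the letters and were not tied to binding or to the array values.

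The values are the deposited log2 signals, so a difference of 1 is a doubling, and signals of different genes are not comparable because each probe set binds with its own strength. Array medians over all probe sets ran from 7.67 to 7.75 in 15EN and from 7.69 to 7.73 in VC. 15EN replicate 3 stood apart, with Pearson's r of 0.979 and 0.980 to the other 15EN arrays, whereas 15EN replicates 1 and 2 correlated at 0.991 and the VC arrays at 0.990 to 0.992. Over the 3787 genes called, the median absolute same-numbered difference was 1.27, 1.28 and 1.02 for replicates 1, 2 and 3. A gene is called dim on an array where it lay below the 90th percentile of 612 negative control probe sets (7.41 to 7.99), which does not mean undetected. The hybridization controls, RNAs added at fixed amounts before hybridization, averaged 10.31 to 10.60 in 15EN and 11.22 to 11.37 in VC. Scaling to them adds 0.87 to every log2 difference and moves the median gene from 0.01 to 0.88, so differences below are relative to the median gene as deposited.

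Of the 10 genes, the receptors NOTCH2 and NOTCH3 fell in 15EN and 0 rose, by limma at adjusted p under 0.05 over all 17687 genes. That is 20.0% of the genes, against 21.4% of all genes called in either direction, 12.3% higher and 9.09% lower, so the share called was near the background. At an unadjusted p under 0.05 there were 6 of the 10 (32.2% of all genes). Of these 3 were higher (NOTCH1, JAG1 and HES1) and 3 lower (NOTCH2, NOTCH3 and HES6), against 18.2% and 14.0% of all genes. The 15EN and VC arrays did not overlap for 6 of the 10, a pattern seen in 36.3% of all genes. JAG1 and DLL1 lay above VC (19.7% of all genes), and NOTCH2, NOTCH3, DLL3 and HES6 below it (16.6%). The log2 differences of the 10 were 5 positive and 5 negative with a median of 0.03, beside 0.01 over all genes. With same-numbered arrays as a block, 1 was higher (JAG1, adjusted p = 0.0265) and the same 2 were lower. After scaling to the hybridization controls the count became 5 higher (NOTCH1, JAG1, DLL1, HES1 and HEY1) and 0 lower, and JAG2, DLL3 and HES6 changed sign.

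**Figure D1:**
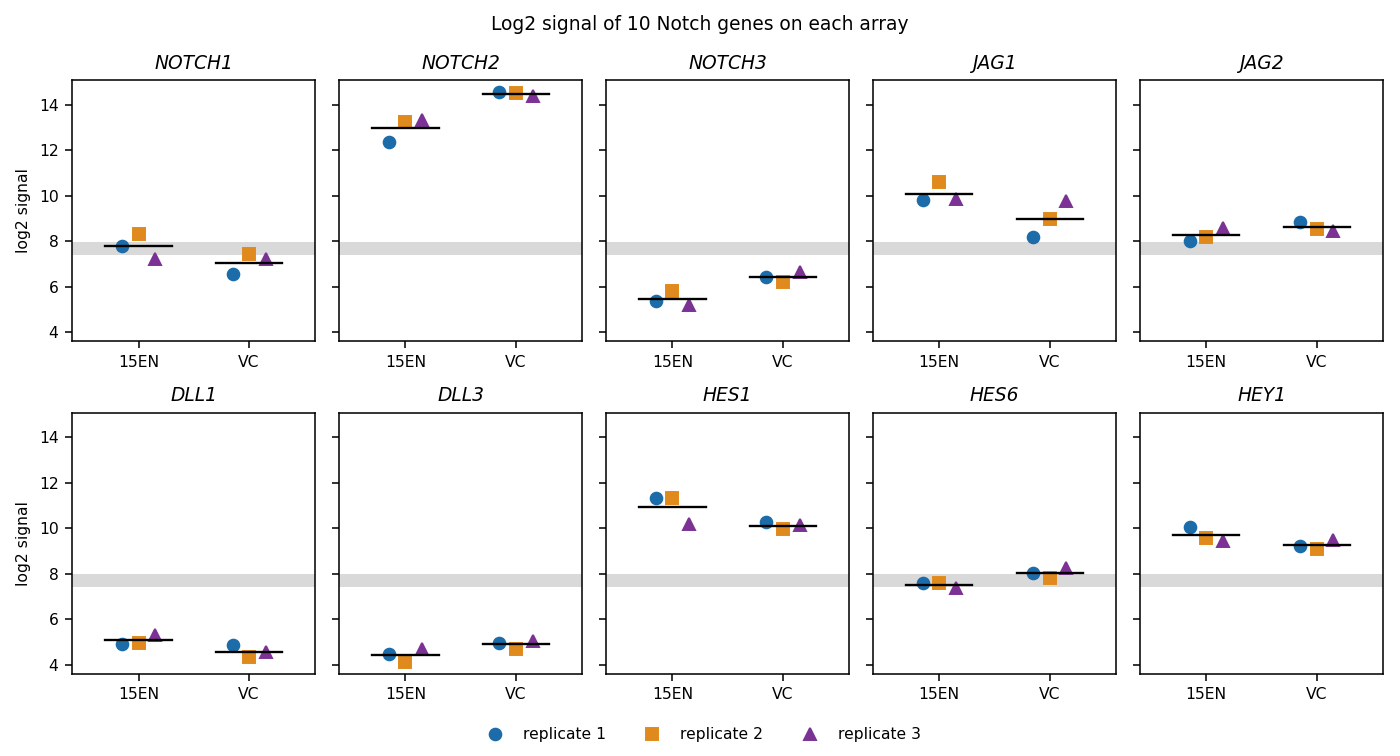
Log2 signal (y axis) of each gene on the 3 15EN arrays (left in each panel) and the 3 VC arrays (right), with a symbol for each replicate number, a line at the group mean and a grey band over the 90th percentiles of the negative controls (7.41 to 7.99). NOTCH2 was lower on every 15EN array than on any VC array, HES1 was high on 15EN replicates 1 and 2 but not 3, and NOTCH3, DLL1 and DLL3 lay below the band throughout.

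Among the receptors, NOTCH2 showed the clearest difference. NOTCH2 is the receptor paralogue known for roles in neural progenitors and bile duct development. On the log2 scale it read 12.38, 13.23 and 13.35 in 15EN (replicates 1, 2 and 3, the order used throughout), against 14.56, 14.54 and 14.37 in VC. All 15EN arrays lay below all VC arrays, with replicate 1 the lowest, and none was dim. NOTCH2 averaged 12.99 ± 0.53 in 15EN and 14.49 ± 0.10 in VC (SD, n = 3 each), a log2 difference of -1.51 ± 0.27 (SE; 95% interval -2.11 to -0.90; limma adjusted p = 0.00372), or 0.352 of the VC signal. The same-numbered differences were -2.19, -1.31 and -1.02. The call held without any 1 of the 6 arrays, at -1.69 to -1.20. It was lost without moderation (adjusted p = 0.0693) and, against 0, after scaling to the hybridization controls (-0.64, adjusted p = 0.0879), where the median gene stood at 0.88.

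NOTCH2 has near-identical partial copies in the human genome, among which NOTCH2NLA was measured and is given here because of that likeness, chosen after its values were seen. NOTCH2NLA read 10.90, 11.45 and 11.36 in 15EN and 12.70, 12.61 and 12.53 in VC. It fell by 1.38 ± 0.22 on the log2 scale (limma adjusted p = 0.00202). Whether the 2 probe sets separate these transcripts was not tested, so the NOTCH2 value may include signal of its copies. Judged by the root mean square distance over the 6 arrays between values centred on each gene's VC mean, the genes most like NOTCH2 were SEPTIN3 (0.0852), LIX1L (0.130), SELENON (0.137), CAPN1 (0.140) and IFNGR2 (0.142). All 5 fell, by 1.39 to 1.59 on the log2 scale, with replicate 1 the most negative same-numbered difference in each. This likeness follows from choosing them for closeness to NOTCH2 on these same arrays and is not a separate result. SEPTIN3 encodes a neuronal septin, CAPN1 a calcium-dependent protease and IFNGR2 a chain of the interferon-gamma receptor. The distance of NOTCH2NLA was 0.177.

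NOTCH3, a receptor best known in vascular smooth muscle and itself a Notch target, was dim on all 6 arrays. Its log2 signal was 5.36, 5.83 and 5.19 in 15EN and 6.45, 6.20 and 6.66 in VC. The groups did not overlap, and the log2 difference was -0.97 ± 0.24 (SE; 95% interval -1.51 to -0.44; limma adjusted p = 0.016). A level within the range of the negative controls makes the size of this fall uncertain. The call was lost without 15EN replicate 1 (adjusted p = 0.0556), VC replicate 1 (0.0569) or VC replicate 3 (0.0769), and after scaling to the hybridization controls the difference was -0.11 (0.728).

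NOTCH1, a receptor that maintains neural progenitors, had a positive difference that did not pass. It read 7.80, 8.31 and 7.23 in 15EN and 6.55, 7.43 and 7.21 in VC. Replicates 1 and 2 of 15EN were above their same-numbered VC arrays by 1.25 and 0.88, while replicate 3 differed by 0.02, and the groups overlapped. The log2 difference was 0.72 ± 0.32 (SE; 95% interval 0.01 to 1.43; limma adjusted p = 0.151). The gene was dim on all VC arrays and on 1 15EN array. Without 15EN replicate 3 the difference was 0.99 and passed (adjusted p = 0.0221). Without 15EN replicate 2 it was 0.45 (0.422), and without VC replicate 1 it was 0.46 (0.445).

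**Figure D2:**
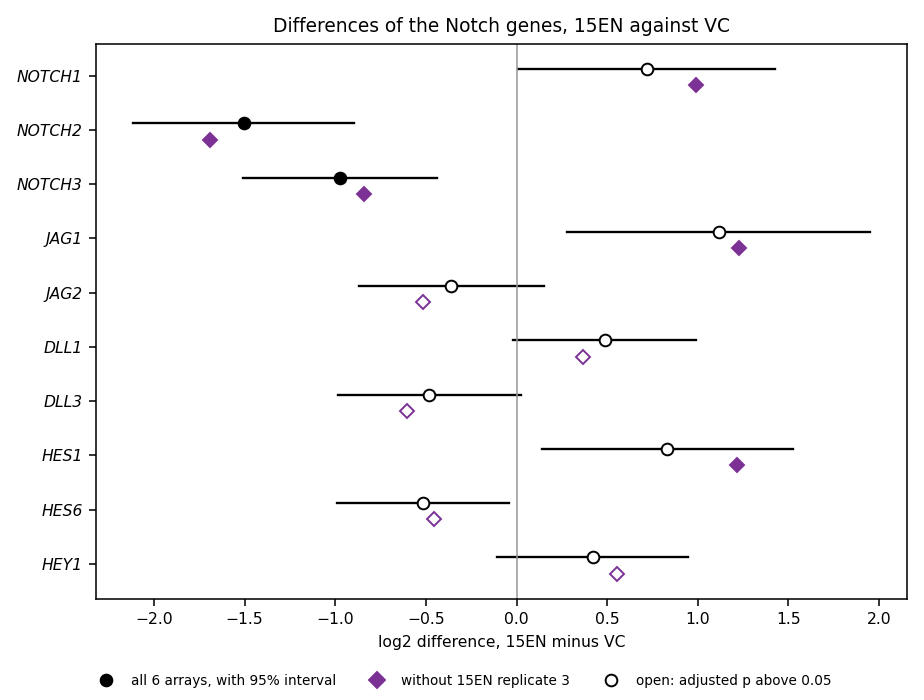
Log2 difference of each gene (x axis, 15EN minus VC) from all 6 arrays (circles, with the 95% interval of the limma fit) and without 15EN replicate 3 (diamonds), filled where the adjusted p is under 0.05. NOTCH2 and NOTCH3 are filled and negative in both fits, and NOTCH1, JAG1 and HES1 are filled on the positive side only without that array. After scaling to the hybridization controls every circle is 0.87 higher, and those of JAG2, DLL3 and HES6 change sign.

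Among the ligands, JAG1 had the largest positive difference of the 10 genes and missed the threshold. JAG1 encodes a Jagged-type ligand, mutated in Alagille syndrome and induced by several growth factor pathways. Its log2 signal was 9.82, 10.59 and 9.87 in 15EN, against 8.18, 9.00 and 9.76 in VC. The groups were separated by only 0.06, since VC replicate 3 was nearly as high as 15EN replicates 1 and 3. JAG1 averaged 10.10 ± 0.43 in 15EN and 8.98 ± 0.79 in VC (SD, n = 3 each), and the log2 difference was 1.11 ± 0.38 (SE; 95% interval 0.28 to 1.95; limma adjusted p = 0.0606). In the fit with a replicate block, which pairs arrays by the passage in their titles, JAG1 was past the threshold (adjusted p = 0.0265). The same-numbered differences were 1.64, 1.59 and 0.11. It also passed without VC replicate 3 (1.50, adjusted p = 0.0248) or 15EN replicate 3 (1.23, 0.0387), and its smallest value among fits with 1 array left out came without VC replicate 1 (0.71, 0.217).

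The other 3 ligands did not pass, and their differences lay between -0.48 and 0.49. JAG2, the second Jagged ligand, read 8.01, 8.20 and 8.57 in 15EN and 8.84, 8.55 and 8.47 in VC, with overlapping groups. Its log2 difference was -0.36 ± 0.23 (95% interval -0.87 to 0.15; limma adjusted p = 0.328). The Delta-type ligand DLL1, which activates receptors on neighbouring cells during neurogenesis, read 4.94, 4.97 and 5.32 in 15EN and 4.86, 4.33 and 4.58 in VC. The DLL1 groups were separated by 0.08, and the difference was 0.49 ± 0.23 (95% interval -0.02 to 0.99; limma adjusted p = 0.171). DLL3 is a divergent Delta protein that inhibits Notch from within the same cell and is known from neuroendocrine tumours. It read 4.50, 4.13 and 4.68 in 15EN and 4.97, 4.71 and 5.07 in VC, a difference of -0.48 ± 0.23 (95% interval -0.99 to 0.02; limma adjusted p = 0.176). DLL1 and DLL3 were dim on all 6 arrays, so their differences rest on signals within the range of the negative controls. The intervals of all 3 include 0 and do not show that the ligands were alike in the groups.

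Among the HES and HEY genes, HES1 was higher on 2 of the 3 15EN arrays. HES1 encodes the repressor of proneural genes whose promoter is printed above, and it also responds to signals other than Notch. Its log2 signal was 11.35, 11.32 and 10.19 in 15EN and 10.26, 9.96 and 10.15 in VC. Replicates 1 and 2 of 15EN lay well above all VC arrays, while replicate 3 lay within the VC range. HES1 averaged 10.95 ± 0.66 in 15EN and 10.12 ± 0.15 in VC (SD, n = 3 each), and the log2 difference was 0.83 ± 0.31 (SE; 95% interval 0.14 to 1.52; limma adjusted p = 0.0878). Without 15EN replicate 3 it was 1.21 and passed (adjusted p = 0.0012). Without any other single array it lay between 0.63 and 0.90 and did not pass, nor did it with the replicate block (0.0568).

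HEY1, a hairy-related repressor that can pair with HES1, followed a similar order with smaller differences. It read 10.05, 9.59 and 9.43 in 15EN and 9.22, 9.08 and 9.50 in VC, and the groups overlapped. The log2 difference was 0.42 ± 0.24 (95% interval -0.11 to 0.95; limma adjusted p = 0.264), with 0.55 without 15EN replicate 3 (0.0984) and 0.24 without 15EN replicate 1 (0.597). HES6 differs from the other two in role, since it counteracts HES1 and promotes neuronal differentiation. It read 7.59, 7.58 and 7.40 in 15EN and 8.06, 7.80 and 8.27 in VC, lower on all 15EN arrays than on any VC array. The log2 difference of -0.52 ± 0.21 (95% interval -0.99 to -0.04) missed the threshold after adjustment (limma adjusted p = 0.119) and was 0.35 after scaling to the hybridization controls. HES6 was dim on 1 15EN array.

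**Figure D3:**
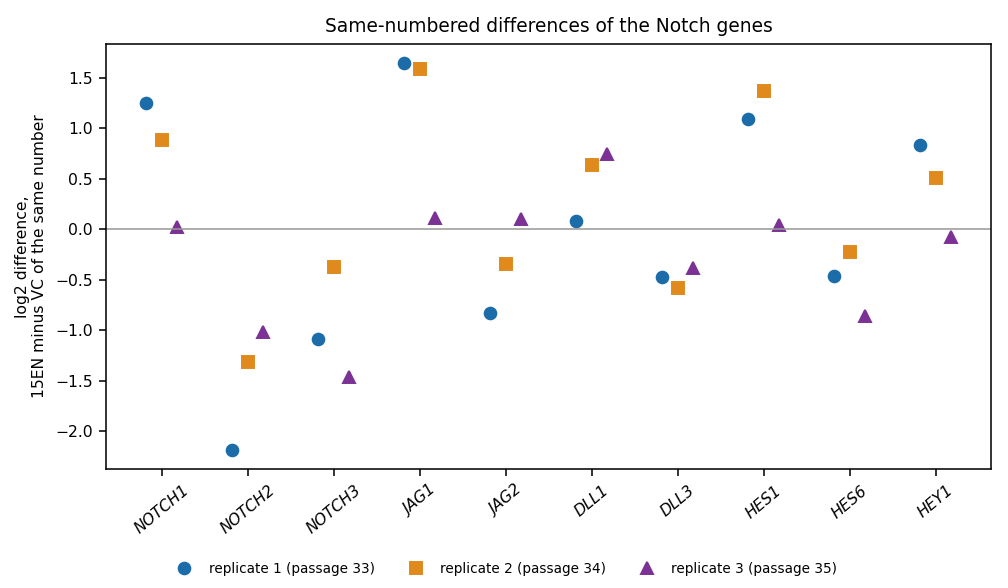
Log2 difference between the 15EN and VC arrays of the same replicate number (y axis) for each gene, with a symbol for each number and its passage from the titles. For NOTCH1, JAG1, HES1 and HEY1 replicates 1 and 2 are positive, at 0.51 to 1.64, and replicate 3 lies between -0.08 and 0.11, whereas NOTCH2 and NOTCH3 are negative in all 3.

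The 4 genes with clearly positive differences in replicates 1 and 2 thus had almost none in replicate 3. The same-numbered differences of NOTCH1, JAG1, HES1 and HEY1 were 0.83 to 1.64 in replicate 1, 0.51 to 1.59 in replicate 2 and -0.08 to 0.11 in replicate 3. For HES1 and NOTCH1 the low value of replicate 3 lay on the 15EN array, which exceeded the VC mean by 0.07 and 0.17. For JAG1 it lay on the VC array, since 15EN replicate 3 was 0.89 above the VC mean. Replicate 3 was not nearest to 0 in every gene, since its -1.46 for NOTCH3 and -0.86 for HES6 were the most negative of their 3 differences. Passage and the array were not separable here, because each passage had 1 array per group. The part that 15EN replicate 3's general distance from the other 15EN arrays has in these values was not tested.

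Beyond the 10 genes, 104 other Notch pathway genes were listed from textbook knowledge, with earlier results of these data known. Counts on these lists therefore describe the arrays and are not a separate test. Of the 104 genes, 94 were measured. Of these 14 were higher and 8 lower (23.4% called, against 21.4% of all genes), with a median log2 difference of -0.05 beside 0.01 over all genes. The counts by role below are to be read against 12.3% higher and 9.09% lower of all genes, or 18.2% and 14.0% at an unadjusted p under 0.05, and each role holds few genes. After scaling to the hybridization controls the split was 63 and 4. The higher count was 7 without 15EN replicate 2, 8 without VC replicate 1 and 9 without VC replicate 2 or 3, and the lower count was 14 without 15EN replicate 3. Among 8 other receptors and ligands, 1 was lower and 0 higher, and 1 had an unadjusted p under 0.05. This was the neuronal adhesion protein gene CNTN1, which has been described as a non-canonical Notch ligand. CNTN1 read 8.86, 7.89 and 9.59 in 15EN and 12.62, 11.91 and 11.58 in VC, a log2 difference of -3.26 ± 0.41 (limma adjusted p = 0.000598). The fourth receptor, NOTCH4, was dim on 1 15EN array and on all VC arrays. It differed by 0.22 ± 0.27 (limma adjusted p = 0.645), and by 0.50 without VC replicate 1, 0.12 without VC replicate 2 and 0.04 without VC replicate 3. The 8 other HES and HEY genes were dim on all arrays. Of them 1, HES4, was lower (-0.79 ± 0.22, limma adjusted p = 0.0259) and 0 were higher, but HES4 lost its call when any array other than 15EN replicate 3 was left out (0.0511 to 0.116), and stood at 0.080 after scaling to the hybridization controls.

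Enzymes that modify and cleave the receptors moved in both directions. Of 7 measured genes of receptor glycosylation and maturation, 2 were higher and 1 lower. RFNG, a fringe enzyme that extends the fucose on Notch, rose by 1.48 ± 0.23 on the log2 scale, at 10.96, 11.30 and 10.81 in 15EN and 9.47, 9.30 and 9.84 in VC. The xylosyltransferase gene GXYLT1 rose by 0.87 ± 0.20, and its paralogue GXYLT2 fell by 2.38 ± 0.37 to a dim level on 2 of 3 15EN arrays (limma adjusted p from 0.00157 to 0.0107 for these 3). Of 7 measured genes of receptor cleavage, 1 was higher and 1 lower. ADAM10, the protease of the first ligand-induced cut, read 12.16, 12.27 and 12.36 in 15EN and 14.05, 13.99 and 13.70 in VC. All 15EN arrays were thus well below all VC arrays, and the log2 difference was -1.65 ± 0.21 (limma adjusted p = 0.000587). PSENEN, a γ-secretase subunit, rose by 0.82 ± 0.22 (limma adjusted p = 0.0245), a call that was lost when any array other than 15EN replicate 3 was left out (0.0631 to 0.0925).

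In the nucleus RBPJ itself differed little between the groups, at 11.21, 11.82 and 11.13 in 15EN and 11.61, 11.40 and 11.31 in VC (-0.05 ± 0.24, 95% interval -0.59 to 0.49, limma adjusted p = 0.92). Of 19 measured genes of the nuclear complex and its corepressors, 5 were higher and 2 lower, with a median of -0.05. The RBPJ-complex cofactor SNW1 rose by 1.47 ± 0.20, and the acetyltransferase genes KAT2B and CREBBP rose by 2.67 ± 0.42 and 1.10 ± 0.21 on the log2 scale. KAT2B was dim on all VC arrays, so its size is uncertain. The corepressor gene SPEN rose by 0.90 ± 0.21 and lost its call without 15EN replicate 2 (adjusted p = 0.0535), VC replicate 2 (0.0543) or VC replicate 3 (0.0581). With all arrays the limma adjusted p of these 4 ran from 0.000949 to 0.0139.

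Of 16 measured endocytosis and ubiquitin regulators, 3 were higher and 0 lower, against 12.3% and 9.09% of all genes. The unadjusted p was under 0.05 for 4 positive and 0 negative differences, against 18.2% and 14.0%. FBXW7, the adaptor that marks the Notch intracellular domain for breakdown, rose by 1.43 ± 0.26 on the log2 scale (limma adjusted p = 0.00347). The ubiquitin ligase genes NEDD4 (1.06 ± 0.25) and MIB1 (0.94 ± 0.24), the second needed for ligand endocytosis, rose with adjusted p of 0.0128 and 0.0185. NEDD4 lost its call without 15EN replicate 2 (0.0515) or VC replicate 1 (0.0598), and MIB1 without either (0.071 and 0.0657) or VC replicate 3 (0.088).

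Of 15 measured genes listed as other Notch targets, NOTCH3 among them, 2 were higher and 2 lower. The cyclin gene CCND1 fell by 1.93 ± 0.28 on the log2 scale, at 11.60, 12.21 and 12.76 in 15EN and 14.14, 14.14 and 14.08 in VC (limma adjusted p = 0.00131). ID1, an inhibitor of bHLH factors, rose by 1.61 ± 0.38, and the progenitor factor gene SOX9 rose by 1.52 ± 0.39 (limma adjusted p = 0.0134 and 0.0203). ID1 lost its call without VC replicate 1 (0.0638), and SOX9 without 15EN replicate 2 (0.0633), VC replicate 1 (0.0879) or VC replicate 2 (0.0644). Of 18 measured proneural and neuronal transcription factor genes, 1 was higher and 1 lower, and 11 were dim on all arrays. TCF3, the E protein that pairs with proneural factors, fell by 1.30 ± 0.22 (limma adjusted p = 0.00292), but stood at -0.43 (0.169) after scaling to the hybridization controls. INSM1, a neuroendocrine zinc finger factor dim on 2 VC arrays, rose by 1.14 ± 0.34 (limma adjusted p = 0.0379). It lost its call when any array other than 15EN replicate 3 was left out (0.0591 to 0.156), with 0.73 without 15EN replicate 1.

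**Figure D4:**
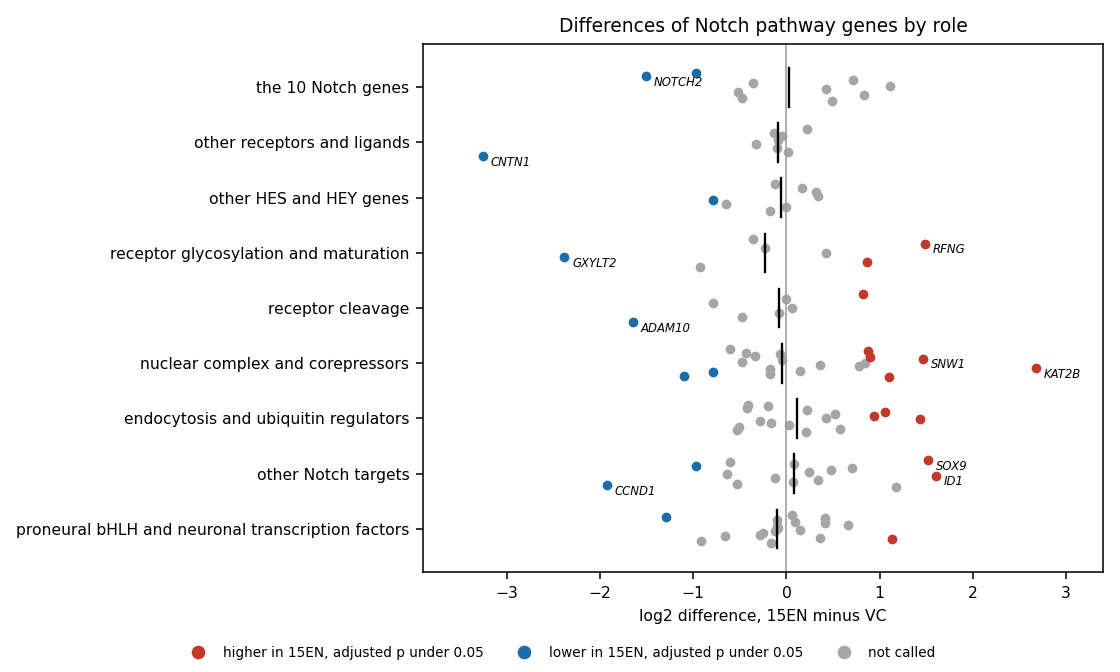
Log2 difference of each measured gene (x axis, 15EN minus VC, as deposited) by role (rows), coloured by its call at adjusted p under 0.05, with a line at each row's median. Rows hold calls in both directions except the 10 Notch genes, the other receptors and ligands, the other HES and HEY genes (lower only) and the endocytosis and ubiquitin regulators (higher only), and row medians lie between -0.23 and 0.12. NOTCH3 appears in the first row and among the targets, and after scaling to the hybridization controls every value is 0.87 higher.

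Markers of the cells, on lists also chosen with earlier results of these data known, were read beside these values. Their counts are to be read against 12.3% higher and 9.09% lower of all genes, or 18.2% and 14.0% at an unadjusted p under 0.05. Adrenergic neuroblast markers averaged 10.19 to 10.37 in 15EN and 11.18 to 11.34 in VC, with 8 of 13 lower and 0 higher (9 lower and 0 higher at an unadjusted p under 0.05). On the log2 scale NEFM, a neurofilament gene, differed by -2.69 ± 0.25, STMN2 by -1.72 ± 0.22, DBH by -1.59 ± 0.23 and the transcription factor gene ISL1 by -1.19 ± 0.26. DBH was dim on 2 15EN arrays, and TH and CHGA were dim on all arrays. After scaling to the hybridization controls ISL1 lost its call (-0.33, limma adjusted p = 0.261), while NEFM, STMN2 and DBH kept theirs. Substrate-adherent neuroblastoma markers, from a state in which Notch activity is known to be high, averaged 9.26 to 9.80 in 15EN and 9.16 to 9.62 in VC. Of 16 of them 4 were higher, among them FOSL1 (3.81 ± 0.42), FOSL2 (2.09 ± 0.36) and YAP1 (1.43 ± 0.21, dim on 2 VC arrays). Another 2 were lower, among them VIM (-0.95 ± 0.21), which lost its call after scaling to the hybridization controls (-0.08, limma adjusted p = 0.776). At an unadjusted p under 0.05 the 16 genes were 4 higher and 5 lower, with a median of -0.09 and 8 positive and 8 negative differences. Fibroblast and matrix markers averaged 9.99 to 10.64 in 15EN and 10.54 to 10.84 in VC, with 3 of 9 lower and 0 higher (4 and 1 at an unadjusted p under 0.05). These were FBLN1 (-1.63 ± 0.32), COL1A1 (-0.88 ± 0.27, dim on 2 15EN arrays and 1 VC array) and THY1 (-0.79 ± 0.25). After scaling to the hybridization controls the differences were -0.76, -0.01 and 0.077, and each call was lost. COL1A1 kept its call without 15EN replicate 3 or VC replicate 1 and lost it without each of the 4 other arrays (0.0552 to 0.164), and THY1 without 15EN replicate 1 or any VC array (0.0755 to 0.162). Of 9 Schwann cell and glial markers 8 were dim on all arrays, their average was 4.92 to 5.15 in 15EN and 5.13 to 5.24 in VC, and 0 were called (1 higher and 1 lower at an unadjusted p under 0.05). GFRA3 had the smallest p of these (0.65 ± 0.22, limma adjusted p = 0.0569). It was dim on all arrays, at 3.30 to 4.34, below the negative control medians of 4.75 to 5.06, so its difference is uncertain. It passed after quantile normalization (0.0334), removal of a brightness trend (0.0358) or scaling to the hybridization controls (0.000443), and with array weights (0.0441) or a trended robust prior (0.0338). The part of these shifts in the Notch differences was not tested, and in bulk RNA fewer cells of a type and less RNA per cell cannot be told apart.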

How the data were processed

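The 6 arrays were grouped by their titles. The values are log2 signals per probe set deposited by the authors. The tool named per the submitters' processing notes is Transcriptome Analysis Console. Its version, normalization and build were not given in the sources used here. That the scale is log2 was judged from the values. Of 24351 probe sets, 17709 carried 1 gene symbol in the platform annotation, and 22 were dropped in favour of a brighter probe set of the same gene, leaving 17687 genes without further filtering. Arrays carry no read depth, so their number limits the precision.

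The 15EN and VC arrays entered a two-sided limma fit (version 3.58.1, R 4.3.3; lmFit and eBayes) with group alone as the term. P-values were adjusted by Benjamini-Hochberg across all 17687 genes, with 0.05 as threshold. The procedure was also run on simulated data with independent noise. That simulation held no passage effect and no array standing apart, so it cannot speak to either. Errors beside differences are standard errors. The members, the wider lists, the markers and the naming rule were chosen with earlier results of these data known. The rule took all 10 members, up to 4 genes of smallest adjusted p per list (or the gene of smallest p where none passed), RBPJ and NOTCH4, and the 5 genes nearest to the called member of smallest p in each direction. That last step gave NOTCH2 alone, since no member was called higher.

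Same-numbered arrays share a passage in the titles, and their deviations from the group means correlated across genes at 0.229, 0.162 and 0.133, against -0.138 to -0.0165 for different numbers. Deviations within a group cancel out, so positive values for same numbers bring negative ones for different numbers. The positive values were the reason for taking the numbers to pair the arrays. The main fit, with group alone, does not use this pairing. A fit blocked on the replicate number was one alternative. The others were quantile normalization, median centring, scaling to 4 hybridization controls, removal of a brightness trend, leaving out the dimmest tercile, array weights, averaging the probe sets of a gene, a trended robust prior, no moderation, and leaving out each array.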

Additional observations from a re-analysis of the deposited data

How the results depend on the processing

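The count of 0 higher among the 10 Notch genes became 1 with the replicate block or without the dimmest tercile of genes (JAG1 in each, adjusted p = 0.0265 and 0.0474), 3 with array weights, 5 after scaling to the hybridization controls, and 0 to 3 without single arrays. The 2 lower became 0 after that scaling or without moderation, and 1 to 2 without single arrays. Of other pathway genes, the 14 higher became 4 without moderation, 63 after that scaling and 7 to 19 without single arrays. The 8 lower became 15 with array weights, 4 without moderation or after that scaling, and 6 to 14 without single arrays. Over all genes, 2179 higher and 1608 lower became 789 and 637 without moderation, 12150 and 437 after that scaling, and 1301 to 3227 and 970 to 2240 without single arrays. That scaling adds a constant to every difference, while the cause of the other changes was not tested. It reversed JAG2 (0.51), DLL3 (0.39), HES6 (0.35), HES4 (0.080), THY1 (0.077) and RBPJ (0.82). RBPJ, near 0 in the fit of all arrays, was also positive with array weights (0.0088), and ran from -0.27 to 0.077 without single arrays, positive without 15EN replicate 1 or 3 or VC replicate 1. The replicate block changed no other call of the 10 genes. DLL1 and DLL3 are among the dimmest tercile and had no value without it. Signals near the negative controls limit NOTCH3, DLL1 and DLL3. In the limma fit without moderation, CNTN1 (adjusted p = 0.0544), CCND1 (0.0524), FBXW7 (0.06), GXYLT2 (0.07), KAT2B (0.0775) and FOSL2 (0.0856) lost their calls. So did NOTCH2, NOTCH3, HES4, PSENEN, SPEN, NEDD4, MIB1, ID1, SOX9, INSM1, ISL1, FBLN1, COL1A1 and THY1. RFNG, GXYLT1, ADAM10, SNW1, CREBBP, TCF3, NEFM, STMN2, DBH, FOSL1, YAP1 and VIM kept theirs in that fit.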
